A study of Mus musculus with 2 samples.

Results

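The genes examined here encode the machinery that stores, docks, fuses and retrieves synaptic vesicles: the synaptotagmins, syntaxins, syntaxin-binding proteins, VAMPs, SNAP proteins, complexins, synapsins, SV2 proteins, synaptophysin and dynamins. They were chosen by symbol, which gave 65 of 21800 protein-coding genes. These were Syt, Stx, Stxbp, Vamp, Snap and Cplx followed by a digit, the 3 synapsins, the 3 SV2 genes, dynamins 1 to 3, and Syp. The members and the role lists used below were chosen with earlier results of these data known. Open chromatin at these genes was read from DNase-seq, in which the enzyme DNase I cuts accessible DNA in isolated nuclei and the cut ends are sequenced. Both libraries came from left cerebral cortex of adult male B6CASTF1/J mice, F1 hybrids of a C57BL/6 and a CAST parent, aged 18 to 20 months, with no treatment given in the labels. They form 1 group, biological replicates 1 and 2, with separate tissue samples under the same donor entry, so the spread between them may be technical. There was no second condition, hence no test, and every comparison below is a description of 2 libraries.

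Transmitter leaves a nerve terminal when a docked vesicle fuses with the plasma membrane. The vesicle protein synaptobrevin (VAMP) zips together with syntaxin and SNAP-25 on the plasma membrane into the SNARE complex, under the control of complexin and other regulators, and a calcium-binding synaptotagmin triggers the fusion. Synapsins tether the reserve of vesicles, and clathrin adaptors and dynamin bring membrane back. Most families also have members that serve membrane traffic in every cell, and others that work mainly in blood, gut, muscle or retina, so the list mixes neuronal, general and non-neuronal genes.

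Nearly all of these genes had an open promoter, and so did most of those counted here as CpG-poor. A promoter peak, here a peak within 1 kb of any protein-coding transcription start site (TSS) of the gene, was present at 59 of 65 members in replicate 1, where the share over all genes was 60.7%. Replicate 2 also had 59, where the share over all genes was 61.2%. In both libraries together 58 members had one (89.2%), against 58.7% of all genes. Among the 43 members with a CpG-rich TSS (observed over expected CpG of at least 0.6 within 500 bp), 41 had a promoter peak in each library, a share near the background for such genes of 93.2% and 92.1%. Among the 22 members without one, 18 had a promoter peak in each library, against 27.3% of all genes without one in replicate 1 and 29.6% in replicate 2. These 22 included Syt1, Syt3, Syt5, Snap25, Stx1a, Sv2a, Sv2b, Syn3, Syp and Dnm3, all of which were open in both libraries. Of these, Dnm3 (0.586), Stx1a (0.585), Sv2b (0.582), Syp (0.573) and Snap25 (0.554) lay close under the threshold. Lower were Syt5 (0.499), Syt1 (0.496), Syt3 (0.392), Syn3 (0.351) and Sv2a (0.328). A background of genes with like CpG values was not drawn, so part of the gap may come from the threshold. The 12 presynaptic genes among the 22 had a median signal of 3.11 and 2.82 at their strongest promoter peak. Over all CpG-poor genes with a promoter peak it was 1.97 and 1.62. The 15 presynaptic genes with a CpG-rich TSS went the other way, with 2.94 and 2.41. Over all CpG-rich genes with a promoter peak it was 4.36 and 3.32.

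The tissue is a mixture of cell types, so a weak peak can reflect few cells with an open site or many cells with a less open one, and these cannot be told apart. Promoter peaks were found in both libraries at all 5 cortex markers and all 3 excitatory neuron markers chosen for this check, and at 1 of 3 inhibitory neuron markers. Of 3 microglial markers and of 3 hindbrain and spinal cord markers none had one in either library. Of 3 endothelial markers 1 had one in replicate 1 and none in replicate 2, while 2 of 3 oligodendrocyte and 2 of 3 astrocyte markers did in each. The astrocyte markers were Aldoc and Aqp4 in replicate 1 and Aldoc and Gja1 in replicate 2, so 1 was open in both. Replicate 1 had 73221 peaks in all and replicate 2 had 111105, with a median peak signal of 1.24 and 0.894. The signal is the authors' value for each peak, on a scale that is not stated. Without read totals, these numbers are the sole guide to depth.

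The promoter peaks of Snap25, Syn1, Vamp3 and Stxbp3 held an exact match to the cyclic AMP response element (CRE), TGACGTCA, the site bound by CREB family factors in genes that respond to neuronal activity and hormones. The 4 sites are shown because they were the only exact CRE matches in the members' promoter peaks and all lay within 80 bases of a TSS. They are printed on the strand of the gene, 5′ to 3′, from the GRCm38 (mm10) genome, plus strand unless stated, with the motif in capitals.
Snap25, chr2:136713424-136713453: ttaaaagctgcTGACGTCAaaggaacggcc
Syn1, chrX:20921059-20921088, minus strand: caaaggctgacTGACGTCActcactagccc
Vamp3, chr4:151057953-151057982, minus strand: gccaccgctcgTGACGTCAccacggccccg
Stxbp3, chr3:108840592-108840621, minus strand: gttgatgcgcgTGACGTCAcctgagggcgc
The centres lay 15, 69, 14 and 80 bases upstream of the nearest TSS, in that order. Each of the 4 was centred in a footprint, a short stretch protected from cutting inside an open region, in both libraries. Over all promoter peaks, 85.8% of exact CRE sites in replicate 1 and 91.2% in replicate 2 were centred in a footprint, so the members were not apart from other genes in this. The share of promoter peaks with the match was 3.60% for members (4 of 111) and 2.49% for all genes in replicate 1, and 3.57% (4 of 112) and 2.48% in replicate 2. A sequence match describes the letters in the peak and does not show which factor, if any, was bound.

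A second element, RE1, is the long site of the repressor REST, which keeps neuronal genes silent in cells that are not neurons. It was searched on both strands as the half-sites TCAGCACC and GGACAG, 2 bases apart, with up to 2 mismatches over the 14 bases compared. The members had it more often than genes at large, although the counts are small. Within 1 kb of a TSS it occurred with at most 1 mismatch in 5 of 65 members (7.69%), namely Snap25, Syn1, Syp, Syt4 and Syt14, against 0.761% of all genes. With up to 2 mismatches Syt2 and Stxbp4 joined them, giving 7 members (10.8%) against 4.56%. At 3 mismatches the shares drew close, 43.1% of members and 32.4% of genes.

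Of the 5 members with at most 1 mismatch, all but Syt4 had the site inside a promoter peak of at least 1 library. Of members with a promoter peak in replicate 1, 3 of 59 had an RE1 match in it (Snap25, Syn1 and Syt14), against 1.18% of genes with a promoter peak. In replicate 2 these were 2 of 59 (Syn1 and Syp), against 1.22%. The sites are shown in the orientation of the motif with matching bases in capitals, again plus strand unless stated, so that the lower-case letters inside each site are the 2 spacer bases and any mismatch.
Snap25, first site, chr2:136714282-136714311: cgggagcTCAGCACCctGGACAGgagtgct
Snap25, second site, chr2:136714332-136714361: tgaccttTCAGCACCgcGGACAGcgatccg
Syn1, chrX:20921127-20921156, minus strand: gtcggatTCAGCACCgcGGtCAGagccttc
Syp, chrX:7638731-7638760: acgcgctcCAGCACCgtGGACAGagcccgg
Syt14, chr1:193036150-193036179: caagcggTCAGgACCacGGACAGgtctccg
The pair in Snap25 had no mismatch in either copy, and their centres lay 818 and 868 bases downstream of the nearest TSS, in an intron. They fell in the peak chr2:136714021-136714386 of replicate 1, whose signal was 1.17. The overlapping peak of replicate 2 ended at base 136714253 (signal 1.13), short of both sites. Of the sites in replicate 1 none was centred in a footprint (0 of 4 in members, against 20.4% of 157 sites in all promoter peaks). In replicate 2 the Syp site was, and the Syn1 site was not, against 11.2% of 170 sites.

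**Figure D1:**
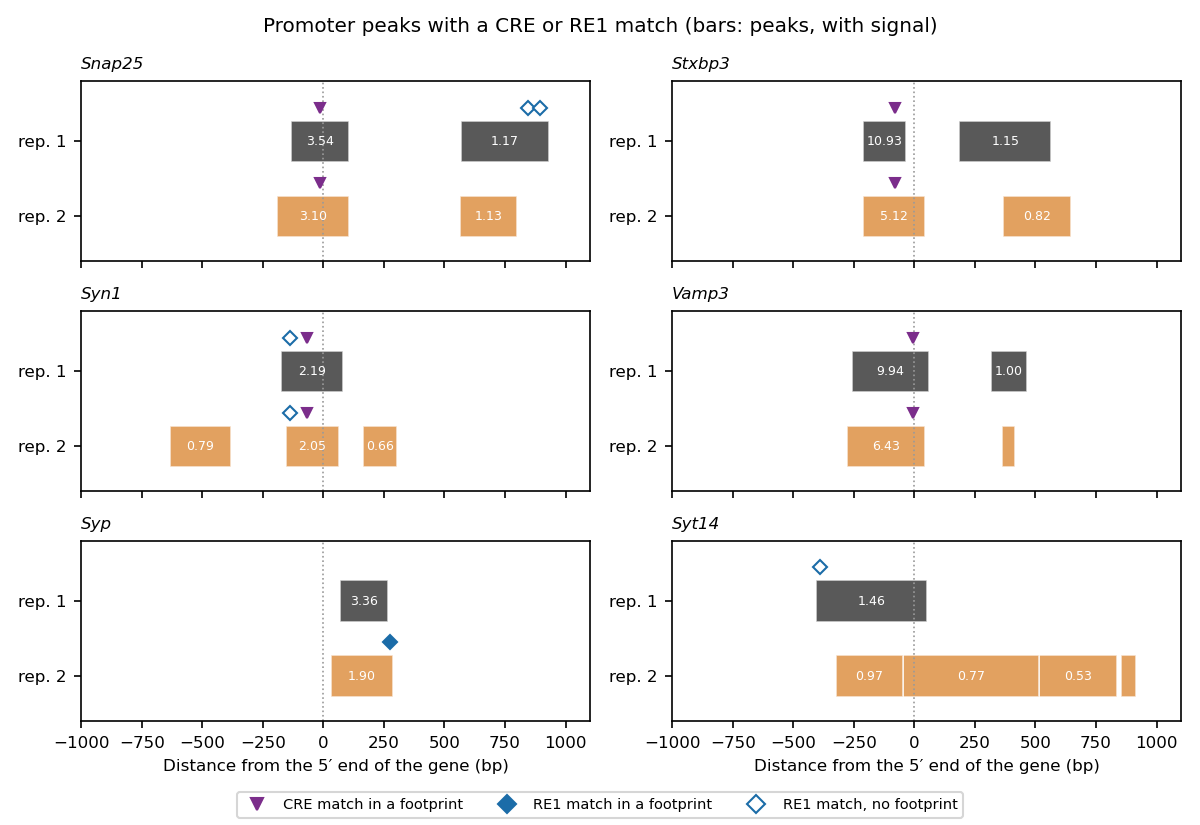
Promoter peaks of the 6 members with a CRE or RE1 match, drawn by distance in bp from the 5′ end of the gene on the gene's strand (bars are peaks, black for replicate 1 and orange for replicate 2, with their signal; triangles are CRE and diamonds RE1 matches, filled where centred in a footprint). The 4 CRE matches sit just upstream of the 5′ end and are filled in both libraries, whereas the Syp site in replicate 2 is the only filled RE1 match.

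Syn1 carried both elements in a single peak. Its promoter peak spanned chrX:20920921-20921180 in replicate 1 (signal 2.19) and chrX:20920941-20921160 in replicate 2 (2.05). The part upstream of the annotated transcript, on the minus strand, reads as follows, with the RE1 match first and the CRE second in capitals.
Syn1 promoter, chrX:20921005-20921180, minus strand: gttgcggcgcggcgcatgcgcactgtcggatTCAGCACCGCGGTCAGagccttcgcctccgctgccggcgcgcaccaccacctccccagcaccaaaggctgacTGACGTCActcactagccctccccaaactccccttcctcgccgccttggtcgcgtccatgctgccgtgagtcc
Only the CRE was footprinted, by stretches of 19 bases in replicate 1 and 12 bases in replicate 2.

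The calcium sensors differed widely in promoter signal. Syt1, the main fast calcium sensor of forebrain synapses, had a strongest promoter peak of 3.80 in replicate 1 and 4.30 in replicate 2 (4.05 ± 0.35, SD, n = 2). Syt7, a slower sensor of high calcium affinity, had 2.94 and 1.57 (2.26 ± 0.96). Syt5, a close relative of Syt1, was the strongest of the presynaptic synaptotagmins at 6.74 and 4.86 (5.80 ± 1.33). At the other end stood Syt9, another fast sensor, with 0.798 and 0.554 (0.676 ± 0.173) spread over wide peaks of 620 and 720 bp. Syt2, the fast sensor that prevails in brainstem and spinal cord, was also low, at 1.41 and 1.05 (1.23 ± 0.25). The values of Syt5, Syt1 and Syt7 all lay above those of Syt2 and Syt9.

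Among the 17 synaptotagmins 15 had a promoter peak in each library (88.2%), against 60.7% and 61.2% of all genes. Their median signals were 2.36 and 1.33. Syt11, which does not bind calcium, had 4.11 and 7.17 (5.64 ± 2.16), and Syt4, its relative, 2.68 and 3.90 (3.29 ± 0.87). These were 2 of the 12 members with a promoter peak in both libraries whose signal was lower in replicate 1. The remaining 46 of 58 were higher in replicate 1, as were 9651 of 12789 genes in all, so the direction of the difference between libraries was general.

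The core SNARE genes had middling promoter signals. Snap25 had 3.54 and 3.10 (3.32 ± 0.31) and stood at the middle of the members by mean signal, ranked 29 of 58 with Syt4 next. Stx1a, the plasma membrane syntaxin, had 2.86 and 2.82 (2.84 ± 0.02). The medians over all genes with a promoter peak were 3.82 and 2.88, so Stx1a lay below them in each library and Snap25 lay below in replicate 1 and above in replicate 2.

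Vamp2, the main vesicle SNARE of the forebrain, had 6.22 in replicate 1 and 2.41 in replicate 2 (4.31 ± 2.69), the largest ratio between the libraries among the 58 promoters open in both (2.58). Vamp1, its counterpart in brainstem, spinal cord and some interneurons, had 5.28 and 5.38 (5.33 ± 0.07). The order of these isoforms therefore differed between the libraries. The promoter peak of Vamp2 is shown because it held the only EGR match, GCGTGGGCG, in a promoter peak of the core release genes, the site of the Egr factors that are induced by neuronal activity. The part before the first untranslated exon reads as follows on the plus strand, with the match, here in reverse complement, in capitals.
Vamp2 promoter, chr11:69088401-69088489: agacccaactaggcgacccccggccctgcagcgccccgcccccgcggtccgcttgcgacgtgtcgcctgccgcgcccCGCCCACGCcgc
It was centred in a footprint of 33 bases in replicate 1 and 32 bases in replicate 2. The same held for the only other EGR match in a promoter peak, at Syt12, with a footprint of 26 bases in each library. Over all promoter peaks 71.4% and 76.2% of EGR sites were so centred. EGR matches were present in 1.80% and 1.79% of member promoter peaks and in 1.17% and 1.02% of all promoter peaks.

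Regulators of SNARE assembly came next. Cplx1, the complexin that clamps and promotes fusion, had 2.35 and 1.25 (1.80 ± 0.77). Cplx2, the main complexin of cortical excitatory neurons, had 1.61 in replicate 1 and no promoter peak in the main list of replicate 2. The longer peak list of replicate 2 held one at 1.13. Stxbp5 and Stxbp5l encode tomosyns, which hold syntaxin away from VAMP. Stxbp5 had 2.20 and 4.82, where 2 peaks of replicate 1 were tied and 1 of them overlapped the peak of replicate 2. Stxbp5l had 5.59 and 4.94.

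Vesicle proteins were split. Syn3 (6.62 and 4.99, 5.81 ± 1.15) and Syn2 (5.67 and 4.27, 4.97 ± 0.99) had promoter signals above the medians of all genes in both libraries. Syn1 was lower at 2.19 and 2.05 (2.12 ± 0.10). Synaptophysin, Syp, an abundant membrane protein of synaptic vesicles, had 3.36 and 1.90 (2.63 ± 1.03). Syn1 and Syp lie on the X chromosome, of which a male cell has a single copy; the part of copy number in their signal was not tested. The SV2 transporters were all low: Sv2a, the binding site of the drug levetiracetam, had 2.39 and 1.40 (1.89 ± 0.70). Sv2c had 1.64 and 1.42 (1.53 ± 0.16) and Sv2b 0.812 and 0.948 (0.88 ± 0.10). The highest of the 3 was below the median of all genes in each library.

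Of the genes for vesicle retrieval, Snap91, which encodes the clathrin assembly protein AP180 and is no SNARE despite its symbol, had 4.26 and 2.70 (3.48 ± 1.10). Dnm1, the neuronal dynamin, had 5.08 and 3.52 (4.30 ± 1.10), at a peak that also lies within 1 kb of a TSS of Ciz1. Dnm3 had 4.81 and 3.69 (4.25 ± 0.79). Dnm2, the dynamin of all cells, had the highest mean of all members at 6.72 and 10.98 (8.85 ± 3.01). It was above both neuronal dynamins in each library.

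**Figure D2:**
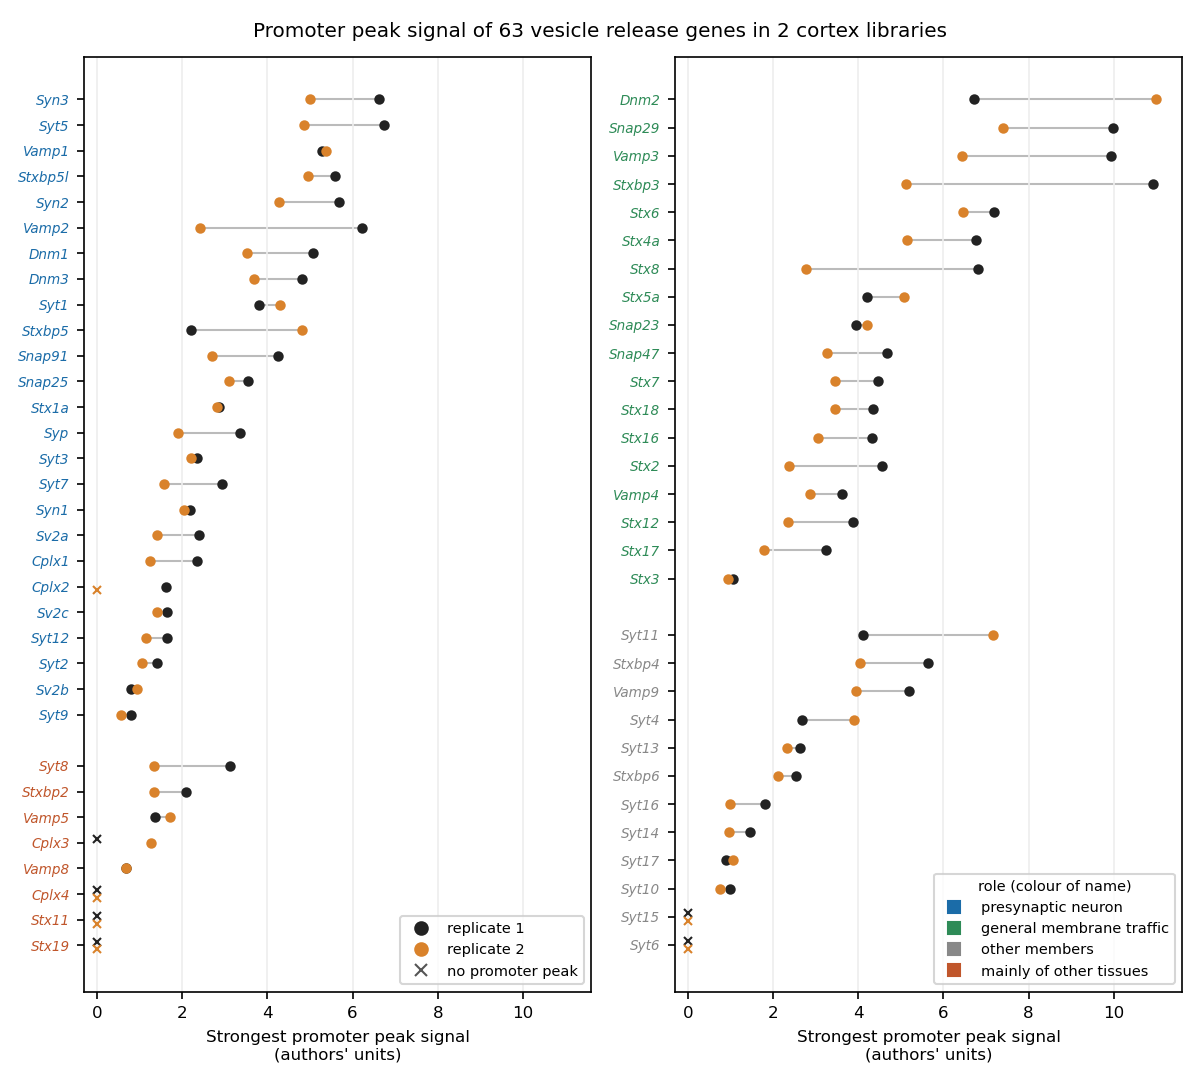
Signal of the strongest promoter peak (x axis, the authors' units) for 63 of the 65 members in replicate 1 (black) and replicate 2 (orange), grouped by role and joined by a line; crosses at 0 mark members with no promoter peak. Members of general membrane traffic reach the highest values, Dnm2, Snap29, Vamp3 and Stxbp3, and 5 members have a cross in both libraries.

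Genes of general membrane traffic had stronger promoters than the presynaptic ones. The median over the 18 such members was 4.52 and 3.46, against 2.94 and 2.42 over the presynaptic members with a peak (27 and 26 of 27). All 18 had a promoter peak in both libraries, against 58.7% of all genes and 91.1% of genes with a CpG-rich TSS. Of the 18, 16 had a CpG-rich TSS, compared with 15 of the 27 presynaptic members. Among genes with a CpG-rich TSS alone the medians were 4.52 and 3.84 for general traffic and 2.94 and 2.41 for presynaptic members. Over all CpG-rich genes with a promoter peak they were 4.36 and 3.32. In both libraries general traffic lay a little above these values and the presynaptic members below them. Next to Dnm2 came Snap29, a SNARE of endosomes and autophagosomes, with 9.98 and 7.41 (8.69 ± 1.82). Vamp3, or cellubrevin, of recycling endosomes had 9.94 and 6.43 (8.18 ± 2.48). Stxbp3, a syntaxin partner of non-neuronal exocytosis, had 10.93 and 5.12 (8.02 ± 4.11). The next were Stx6 of the trans-Golgi network (7.19 and 6.47) and Stx4a of the plasma membrane (6.76 and 5.15). The peak of Snap29 also lay at the start of Pi4ka, so it cannot be given to 1 gene; those of Snap47, Stx5a, Stx8 and Stxbp4 were likewise shared with Jmjd4, 1700092M07Rik, Cfap52 and Cox11. The ranges of the roles overlapped: Stx3, with 1.07 and 0.941, lay below most presynaptic members.

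The members listed as mainly of other tissues had the smallest share of open promoters among the roles, 4 and 5 of 8 (50% and 62.5%). These shares were not far from the 60.7% and 61.2% of all genes, and 5 of the 8 had no CpG-rich TSS. Syt8 (3.12 and 1.33), Stxbp2 (2.08 and 1.35), Vamp5 of muscle (1.35 and 1.72) and Vamp8 of exocrine and blood cells (0.680 and 0.681) had one in both libraries. The Syt8 peak was centred 759 bp downstream of the nearest TSS and that of Vamp5 795 and 805 bp downstream, so neither covered it. Cplx3, a complexin of retinal ribbon synapses, had 1.27 in replicate 2 and only a weaker one, 0.640, in the longer list of replicate 1. Stx11 of lymphocytes, Stx19 of epithelia and Cplx4 of the retina had none in either library. The other members without one were Syt6 and Syt15, whose role was not assigned.

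These gaps were of unlike depth. Stx11 had promoter peaks in the longer lists, at 0.416 and 0.327, and so did Syt6, at 0.548 and 0.500. The lowest per-base false discovery rate (q-value) that the authors listed within 1 kb of a TSS was 0.00958 and 0.00128 for Stx11. It was 0.00472 and 0.00237 for Syt6. Cplx4, Stx19 and Syt15 had no peak there even in the longer lists, and no base with a listed q-value, which the lists give up to 0.05. Stx11 and Syt6 had a CpG-rich TSS, and the other 3 did not.

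Other genes of vesicle release, from a list of 48 that excludes the members, showed much the same pattern. A promoter peak was present at 43 of 48 in replicate 1 and 44 in replicate 2, again against 60.7% and 61.2% of all genes. Their median signal was 3.14 and 2.72, between the medians of the presynaptic and the general members in both libraries. The active zone priming factors Unc13a (5.21 and 3.04) and Rims1 (1.77 and 1.20) and the vesicle GTPase Rab3a (6.08 and 7.74) differed among themselves as widely as the members did. Those without a promoter peak in the main list of either library were Doc2a, a calcium sensor, and the transmitter transporters Slc18a2 for monoamines, Slc18a3 for acetylcholine and Slc32a1 for GABA. Slc32a1 had one in the longer list of both libraries, at 0.765 and 0.641. The vesicular glutamate transporter of cortical excitatory neurons, Slc17a7, was open at 1.25 and 1.21.

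Distal peaks, lying more than 1 kb from every annotated TSS and counted over the gene with 10 kb on each side, were dense at the presynaptic genes. At least 1 was present at 54 members in replicate 1 (83.1%), against 58.3% of all genes, and at 61 in replicate 2 (93.8%), against 67.5%. The members are longer than other genes, with a median of 41.0 kb against 17.4 kb, so their windows have more room for a peak. Per 100 kb of window the median was 2.68 and 4.67 peaks for members and 1.73 and 3.18 for all genes. Within length classes the members also had the higher medians: for genes of 50 to 100 kb they were 3.47 and 6.73 for 10 members against 2.19 and 3.81. For genes over 100 kb they were 2.60 and 4.33 for 16 members against 2.01 and 3.96. For genes under 20 kb they were 3.26 and 5.79 for 17 members against 0 and 2.73. For 20 to 50 kb replicate 1 gave 2.08 for 22 members against 2.06, and replicate 2 gave 4.80 against 3.30.

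Between the presynaptic and the general members the order was the reverse of that for promoters. The presynaptic members had a median density of 3.67 and 6.74 distal peaks per 100 kb and those of general traffic 1.94 and 4.61. This order held in both libraries, while the ranges overlapped: presynaptic members ran from 0 to 37.7 in replicate 1 and from 0.690 to 35.5 in replicate 2. The members of other tissues had 2.98 and 4.58, and those without an assigned role 2.55 and 3.35. The other release genes had 3.01 and 4.84.

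**Figure D3:**
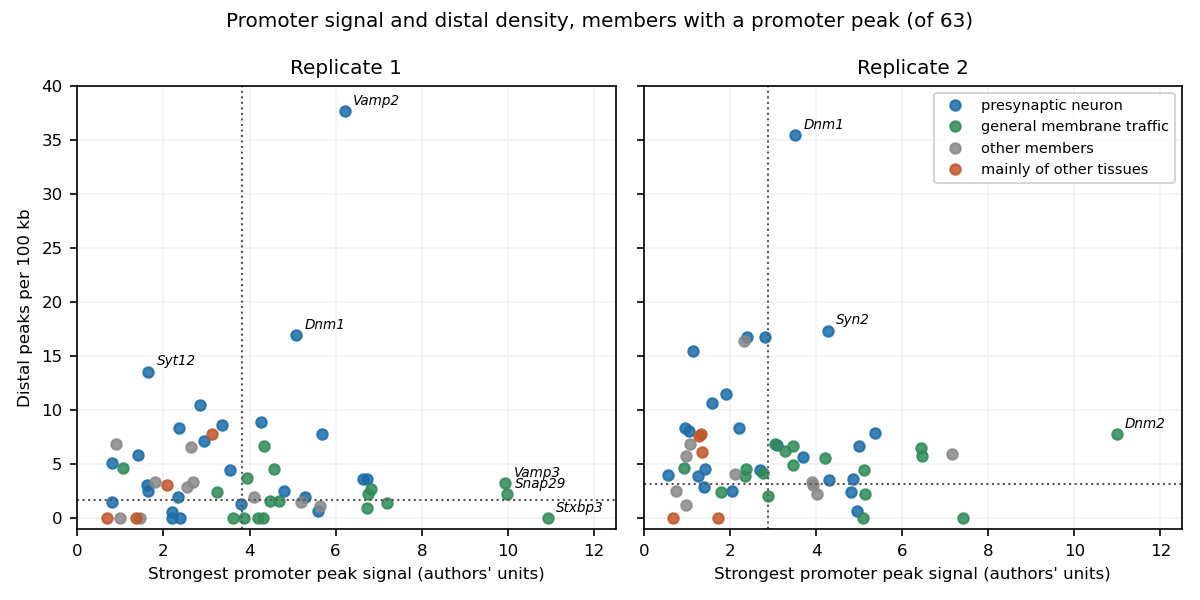
Strongest promoter peak signal (x axis, the authors' units) against distal peaks per 100 kb (y axis) for those of the same 63 members with a promoter peak, 1 panel per library and 1 point per gene coloured by role; dotted lines are the medians over all genes. Members of general traffic (green) reach the far right, where the density of Dnm2 is 0.972 in the left panel and 7.78 in the right one, and presynaptic members (blue) reach the top.

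The densest member was Vamp2, a gene of 3.9 kb, with 9 distal peaks in replicate 1 and 4 in replicate 2 (37.7 and 16.7 per 100 kb, 27.2 ± 14.8). All 4 of replicate 2 were also found in replicate 1. Of the 9, 4 lay nearer to a TSS of Per1, a clock gene downstream, and 5 nearer to Vamp2. Of the 4 in replicate 2, 1 lay nearest to Vamp2 and the others to Per1. Dnm1 followed with 11 and 23 (17.0 and 35.5, 26.2 ± 13.1). All 11 peaks of replicate 1 had a partner in replicate 2, most of them in the first 12 kb of the gene and upstream of it. The 13 that replicate 2 alone had were weaker, with a median signal of 0.707 against 2.11 for its 10 shared ones, and all lay farther from the TSS than every shared intronic peak. In every case the nearest TSS belonged to another gene, Ciz1 or Golga2.

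Several other members had dense distal peaks in both libraries. Syt12 had 7 and 8 distal peaks (14.6 ± 1.4 per 100 kb), Stx1a 5 and 8 (13.7 ± 4.5) and Syn2 13 and 29 (12.6 ± 6.8). Syt13 had 4 and 10 (11.5 ± 7.0), Syp 3 and 4 (10.1 ± 2.0), Syt7 6 and 9 (8.92 ± 2.52) and Syt3 3 in each (8.31). The spread between libraries was larger than the difference between most neighbours in this order. Vamp2 and Dnm1 led in replicate 1, and in replicate 2 Dnm1 led while Cplx2, Syn2 and Stx1a passed Vamp2. Cplx2 rose on a single library: it had 1 distal peak in replicate 1 and 6 in replicate 2 (10.7 ± 10.9), and 5 of the 6 were weak peaks of 0.227 to 0.434 in its last untranslated exon. Snap91 had the reverse pattern, with 12 peaks in replicate 1 and 6 in replicate 2. Of its 12, 11 were found in replicate 1 alone, packed together in the 3′ part of the gene and with signals of 0.106 to 0.455.

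**Figure D4:**
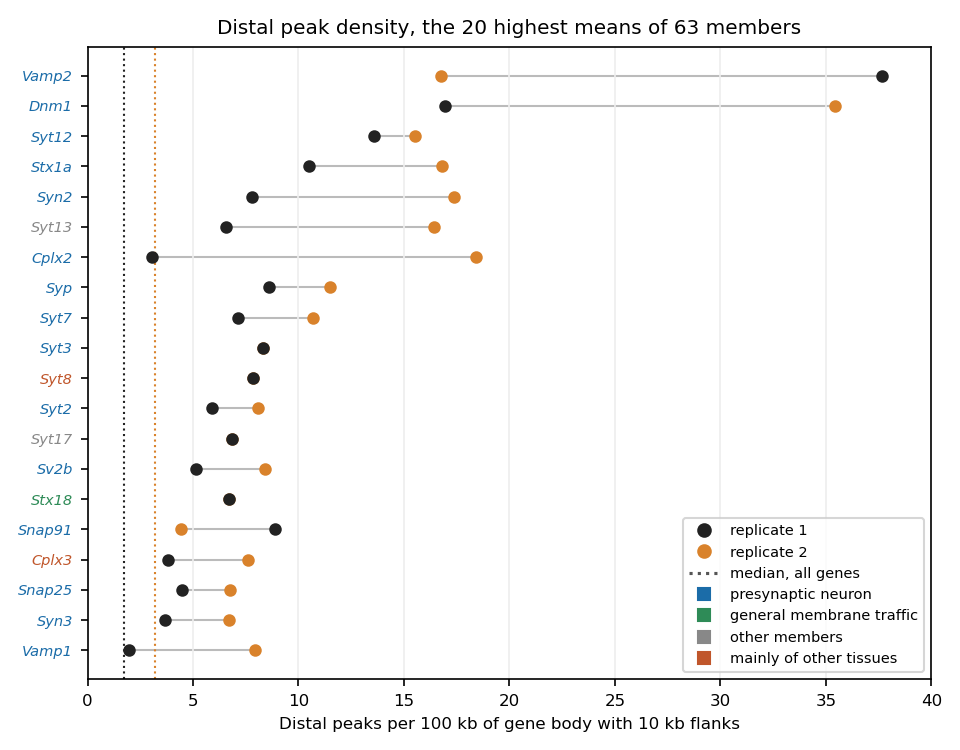
Density of distal peaks, per 100 kb of the gene and its 10 kb flanks (x axis), for the 20 with the highest mean among the 63 members plotted, in replicate 1 (black) and replicate 2 (orange), with the median of all genes for each library as a dotted line and names coloured by role. Vamp2 and Dnm1 lie farthest right with opposite orders of the libraries, and Cplx2 is at 3.07 in replicate 1 and 18.4 in replicate 2.

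The Timp genes lie inside the introns of all 3 synapsin genes, Timp1 in Syn1, Timp4 in Syn2 and Timp3 in Syn3, so distal peaks there cannot be assigned by position. Syn3 had 17 and 31 distal peaks over 444 kb, and the nearest TSS was its own for 9 and 12 of them. Syn2 had 3 of 13 and 5 of 29 nearest to its own TSS. Syn1 had none in replicate 1 and 2 in replicate 2. Over all members the nearest TSS was the member's own for 55.9% and 58.4% of the distal peaks.

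The strongest distal peak shared by both libraries lay downstream of Vamp2, at chr11:69097041-69097260, with signals of 7.29 and 7.49 (7.39 ± 0.14). It was stronger than the promoter peak of Vamp2 in both libraries. It lay 8.64 kb from the TSS of Vamp2 and 1.69 kb from one of Per1. An exact CRE lay inside it, shown in capitals on the plus strand.
Vamp2 downstream peak, chr11:69097041-69097260: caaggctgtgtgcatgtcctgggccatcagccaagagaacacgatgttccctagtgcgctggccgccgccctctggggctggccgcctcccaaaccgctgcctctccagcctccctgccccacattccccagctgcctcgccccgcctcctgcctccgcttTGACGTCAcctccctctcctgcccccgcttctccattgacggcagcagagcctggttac
The CRE was centred in a footprint of 40 bases in replicate 2 and in none in replicate 1.

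Next was a peak beyond the 3′ end of Syt3, 20.9 kb from its nearest TSS, at chr7:44405761-44406040, with 6.76 and 6.33 (6.55 ± 0.30). It was stronger than the Syt3 promoter (2.36 and 2.20) in both libraries. It held an RFX match, GTTGCCATG, and a CRE, in that order in capitals on the plus strand.
Syt3 downstream peak, chr7:44405761-44406040: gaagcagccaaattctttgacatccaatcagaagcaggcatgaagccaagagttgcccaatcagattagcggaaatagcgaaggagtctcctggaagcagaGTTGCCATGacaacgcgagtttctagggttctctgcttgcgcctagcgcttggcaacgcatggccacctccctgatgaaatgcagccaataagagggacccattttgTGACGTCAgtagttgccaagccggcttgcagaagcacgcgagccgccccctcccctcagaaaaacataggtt
The CRE was centred in a footprint of 33 bases in replicate 1 and 23 in replicate 2, and the RFX match was centred in one in both.

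The third lay 7.80 kb upstream of Stx1a, at chr5:135015581-135015780, nearest to Abhd11, with 6.32 and 3.24 (4.78 ± 2.18). It held a match to a CTCF core, AGGTGGCAG, the site of the insulator protein CTCF, printed in capitals on the plus strand.
Stx1a upstream peak, chr5:135015581-135015780: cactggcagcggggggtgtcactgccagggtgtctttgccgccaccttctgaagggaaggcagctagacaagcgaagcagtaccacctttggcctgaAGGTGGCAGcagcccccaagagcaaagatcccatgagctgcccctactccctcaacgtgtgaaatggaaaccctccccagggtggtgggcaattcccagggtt
The match was centred in footprints of 47 and 48 bases, which were wider than those at the CRE, RE1 and EGR sites printed above.

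**Figure D5:**
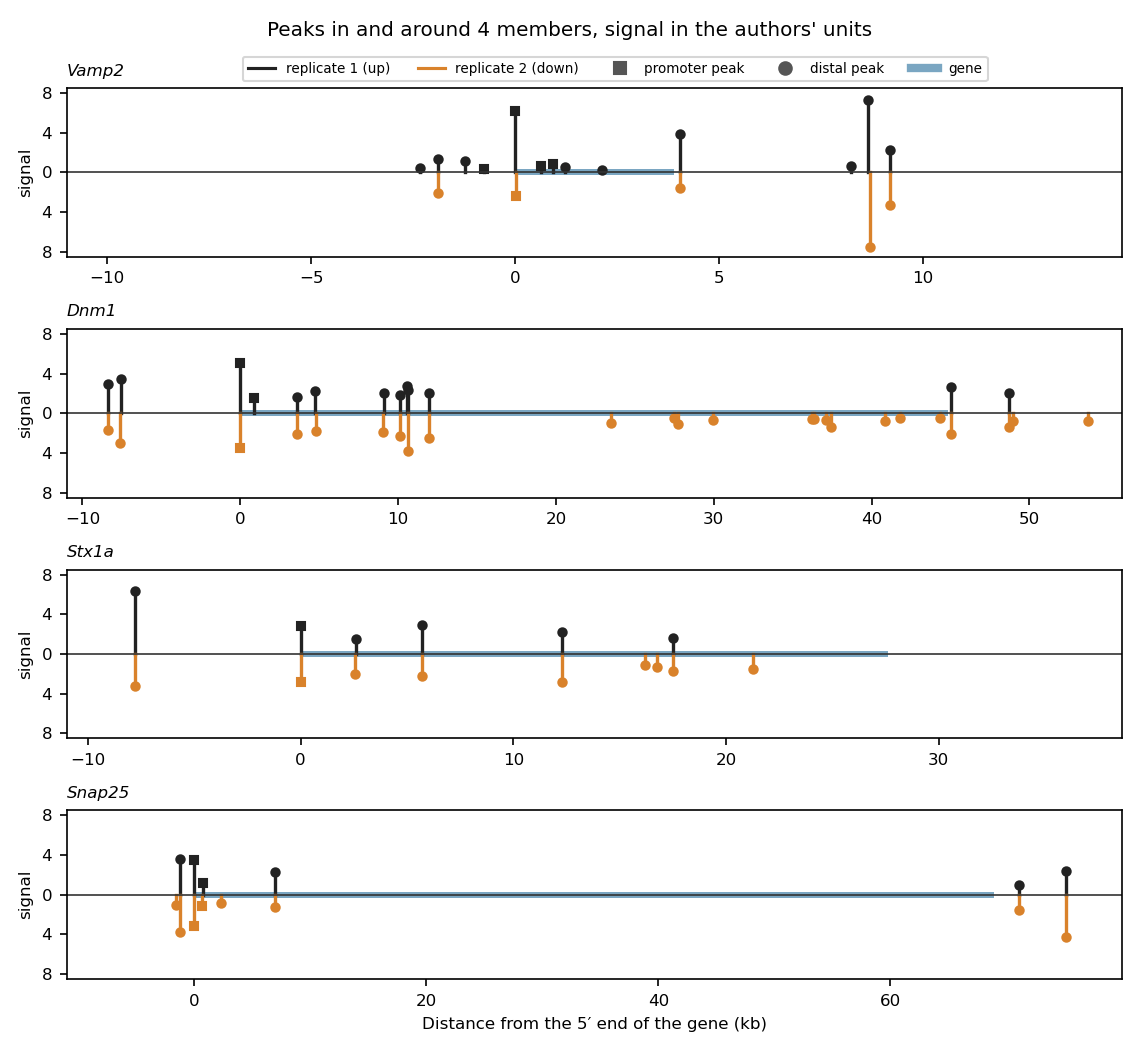
Peaks in and around Vamp2, Dnm1, Stx1a and Snap25 by distance in kb from the 5′ end of the gene (x axis) and signal in the authors' units (y axis; replicate 1 upward, replicate 2 downward; squares are promoter peaks, circles distal peaks, the blue bar the gene). The tallest distal peak in both libraries is the one 8.64 kb downstream of the start of Vamp2, and the extra peaks of Dnm1 in replicate 2 are short.

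Further shared distal peaks among the 10 strongest included those in introns of Syt16 (5.01 and 2.77, and 3.97 and 3.39), Stxbp6 (2.43 and 4.82), Cplx2 (4.30 and 2.81) and Syt7 (2.64 and 4.34), and 1.21 kb upstream of Snap25. The Snap25 peak, at chr2:136712141-136712340, had 3.65 and 3.72 (3.69 ± 0.05), as much as its promoter peak. Snap25 also had a shared peak downstream of its 3′ end, at 2.43 and 4.26. The intronic Cplx2 peak was stronger than its promoter peak, in a gene whose promoter peak was missing from the main list of replicate 2.

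Distal peaks lay in an intron of the member in 147 of 222 pairs of member and peak in replicate 1 (66.2%) and in 276 of 385 in replicate 2 (71.7%). Counted the same way over all genes, which are shorter, the shares were 59.1% and 65.5%. Promoter peaks recurred in the other library at about the rate of all promoter peaks, 83.8% of 111 against 83.6% in replicate 1 and 81.2% of 112 against 80.8% in replicate 2. Distal peaks recurred a little less often, 81.4% against 86.9% in replicate 1 and 45.8% against 49.1% in replicate 2. Of the 41 unshared peaks of replicate 1, 11 were the weak ones of Snap91, and without this gene the shares were 85.6% and 46.3%, an alternative chosen after seeing the data. The distal peaks that replicate 2 alone had were weaker than its shared ones, with medians of 0.771 and 1.43. Signals were within 1.5-fold of each other in 37 of the 58 promoters open in both libraries and more than 2-fold apart in 5. These fold differences were not counted over all genes.

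Exact CREs lay in 5 of 221 distal peaks in replicate 1 (2.26%, all distal peaks 0.522%) and 5 of 384 in replicate 2 (1.30%, all distal peaks 0.435%), at Dnm1, Stx6, Syp, Syt3 and Vamp2 in both libraries. Of these 5 sites 4 were centred in a footprint in replicate 1 and 5 in replicate 2, while over all distal CRE sites the shares were 66% and 72.2%. CTCF matches lay in 3.62% and 1.82% of the members' distal peaks, against 2.78% and 1.89%. AP-1 matches, TGACTCA, the site of Fos and Jun, lay in 10.4% and 15.1%, against 9.65% and 13.9%. E-box matches, CAGATG, lay in 19.9% and 25.8%, against 22.2% and 25.8%, so for these letters the members were close to all distal peaks. In promoter peaks the GC-box of SP factors, GGGCGG, lay in 58.6% and 52.7%, against 54.5% and 49.9%. No promoter peak of a member held the NFI, RFX or CTCF letters in either library; over all promoter peaks these were found in at most 0.889%.

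Footprints were about as frequent at the members as elsewhere. At least 1 lay in 84.7% and 82.1% of their promoter peaks, against 80.5% and 78.5% of all promoter peaks. For distal peaks these shares were 88.7% and 89.1%, against 91.7% and 87.0%.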

How the data were processed

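DNase-seq of 2 libraries was analysed from the peak lists, footprints and per-base values that the authors deposited on mm10, per the accompanying notes. Each library was called separately from its own alignments, per those notes. Aligner, peak caller and footprint tool: not given in the sources used here. How the authors scaled the deposited signal is likewise unknown. The deposited per-base q-value (false discovery rate) is listed up to 0.05, and the fraction in the deposited footprint lists, 0.01 in every row, was not used. The reference is C57BL/6J, so sites on diverged CAST alleles can be missed.

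The shorter peak list was the main list. Peaks were assigned to GENCODE M21 genes and motifs sought in GRCm38.p6, in python 3.11.15 with numpy 2.4.6 and pandas 2.3.3. The assignment was tested on simulated peaks. Overlap meant at least 1 bp. Values are given per library with mean ± SD (n = 2), and with 1 group no test was possible. Of the role lists' genes 53 matched, and Vamp7 matched no protein-coding gene. Named genes were the core release genes, the 10 with the strongest promoters, the 10 with the densest distal peaks, those lacking a promoter peak in a library, the genes of the 10 strongest shared distal peaks, and those around the median; others serve to illustrate a role. Of the 65 members, 2 enter the counts but are not reported singly here. The members and all lists were chosen with earlier results of these data known.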

Additional observations from a re-analysis of the deposited data

How the results depend on the processing

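Members with a promoter peak, 90.8% as the mean of both libraries made up 95.4% with the wider peak list, 90.0% with equal numbers of peaks kept by signal, 83.8% with peaks at or above the library's median signal and 87.7% within 500 bp of a TSS. The median promoter signal, 3.16 as the mean of both libraries, was 4.09 when all promoter peaks of a gene were summed. The median distal density, 3.67 per 100 kb, was 6.44 with the wider list and 1.75 with peaks at or above the median signal. Leaving out either library gave a share of 90.8%, a signal of 2.70 to 3.62 and a density of 2.68 to 4.67. Over 163 values recomputed for single genes and RE1 matches, 148 moved by less than 1 SD between the libraries and 15 by more. An SD of 0, as for the density of Syt3, makes any move count. Leaving out 1 of 2 libraries cannot move a mean by 1 SD, and most strongest promoter peaks stayed the same throughout. The 148 are therefore no measure of robustness. Not among the 163 are the values over all members. There the share moved with each other choice of peaks or distance, the signal when summed, and the density in both alternatives named. The density of single genes depended on the window: for Stx1a it was 19.9 over the gene body alone and 5.09 with 50 kb on each side, against 13.7. With 3 RE1 mismatches allowed the mean number of members with a match in a promoter peak rose from 2.5 to 6.5. No paired analysis was possible because there is a single group. With 2 libraries and no read totals, depth limits which weak peaks were called, and a missing peak does not show closed chromatin.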
